A study of Homo sapiens with 9 samples.

Results

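The enzymes that write, erase and read marks on histones and methyl groups on DNA were followed in a human breast cancer line and its metastatic sub-populations. Members were all genes whose symbol matches a fixed set of names, such as KMT, KDM, SETD, KAT and HDAC. The names stand for lysine methyltransferases, SET-domain proteins, lysine demethylases, histone acetyltransferases, BET bromodomain readers, histone deacetylases, sirtuins, DNA methyltransferases and TET dioxygenases. Relatives with other names, such as PRDM9, SETMAR and PHF8, were not members. The members were 81 of 58884 genes in the count table, and 76 of them were among the 13055 genes expressed highly enough to be tested. RNA-seq was performed in MDA-MB-231 cells (Par), a claudin-low, triple-negative line, and in LM2 and BrM2, which were selected from it in mice for colonization of the lung and of the brain, respectively. Each line was sequenced in 3 replicates from different passages, grown as monolayers for 3 days in DMEM with 10% serum. The labels name no treatment. Each line is 1 population, and differences between lines cannot be told apart from differences that arose during its selection and later culture.

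Lysine methyltransferases and demethylases add and remove methyl groups that mark active chromatin (H3K4, H3K36) or repressed chromatin (H3K9, H3K27). Acetyltransferases and deacetylases set histone acetylation, which BET proteins read at active promoters and enhancers. DNMT enzymes methylate cytosines, DNMT1 after replication and DNMT3A and DNMT3B at new sites, and TET enzymes oxidize the methyl group as a step towards its removal.

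Total counts per library were 19878879 to 23948742 for Par, 23581487 to 24511786 for LM2 and 14371858 to 22055215 for BrM2, and members took 0.532% to 0.681% of them. Marker levels are in normalized CPM (counts scaled to a common library size). The mesenchymal marker VIM was at 636 to 882 CPM in Par and at 1253 to 1876 CPM in LM2 and BrM2, and it rose in both against Par (log2 fold changes 1.08 and 1.05, edgeR adjusted p = 0.02 and 0.016). SPARC of the same list rose in LM2 (7.81, adjusted p = 8.4e-05) and in BrM2 (3.19, adjusted p = 0.0012), and FN1 fell in BrM2 (-1.61, adjusted p = 0.00041). The estrogen and progesterone receptor genes ESR1 and PGR and the epithelial genes CDH1 and CLDN3 were below the filter on low counts. Other epithelial and luminal genes were expressed, with means in Par of 853 CPM for KRT8, 432 for KRT18, 112 for ERBB2, 95.3 for CLDN4, 13.4 for CLDN7, 12.9 for GATA3 and 7.17 for EPCAM. Of these, CLDN4 fell in LM2 (-4.03, edgeR adjusted p = 0.001) and in BrM2 (-2.26, adjusted p = 0.0093) and GATA3 in LM2 (-1.57, adjusted p = 0.012), while FOXA1, at a mean of 0.0131 CPM in Par, was at 0.596 CPM in LM2 and 1.94 CPM in BrM2. The 5 lung epithelial markers summed to 0 to 0.158 CPM and the 5 leukocyte markers to 1.19 to 5.04 CPM, with PTPRC and CD3E below the filter. Summed fibroblast markers were at 55.5 to 73.0 CPM in Par, 45.3 to 70.9 CPM in LM2 and 14.1 to 25.0 CPM in BrM2, with DCN and LUM below the filter. Of the 4 tested, edgeR put 1 higher and 2 lower at an adjusted p under 0.05 in each of the 3 comparisons, so that the sums join opposite changes. Endothelial markers summed to 6.72 to 13.1 CPM over all libraries. The sum of the brain markers was 176 to 194 CPM in Par, 117 to 124 CPM in LM2 and 144 to 155 CPM in BrM2, with AQP4, RBFOX3 and OLIG2 below the filter. Of the 3 brain markers tested, 1 was higher and 1 lower in LM2 against Par at that threshold. In BrM2, 0 passed against Par and 1 was lower against LM2. The part of these lists in the differences between members was not tested. Proliferation markers summed to 2310 to 2983 CPM in Par, 2462 to 3634 CPM in LM2 and 1920 to 3182 CPM in BrM2, so that the lines overlapped.

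Of the 5 untested members, SIRT4 had 11 to 24 counts per library, HDAC10 had 3 to 12, and KDM4E and KDM4F had 0 in all libraries. The fifth, KDM5D, lies on the Y chromosome and is given no value. HDAC10 overlaps MAPK12 on the same strand, a gene with a mean of 590 counts. It shares 76.6% of its stretches of 50 bases with that gene, and reads of that part could be split between them. SIRT6 has no symbol in the table and was therefore not a member.

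Transcript levels were compared between genes as CPM per kb of canonical transcript. The maintenance methyltransferase DNMT1 had the highest level of all tested members, at a mean of 112.6 CPM per kb over the lines. It was followed by the class I deacetylase HDAC1 at 99.97, the BET reader BRD2 at 79.0, the class I deacetylase HDAC3 at 66.9, the H3K36 methyltransferase NSD2 at 61.9 and the H3K27 methyltransferase EZH2 at 50.6 CPM per kb. In the other families the highest levels were KDM1A at 47.0, SIRT2 at 34.9, KAT2A at 33.7, SETD5 at 28.8, KMT5A at 28.5, SETD7 at 27.7 and EHMT2 at 18.8 CPM per kb. TET2 was the highest of the TET genes at only 2.92 CPM per kb, and TET1 was the lowest of all tested members at 0.249. KDM7A, a demethylase of repressive marks, was at 0.321 and DNMT3A at 1.28 CPM per kb.

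**Figure D1:**
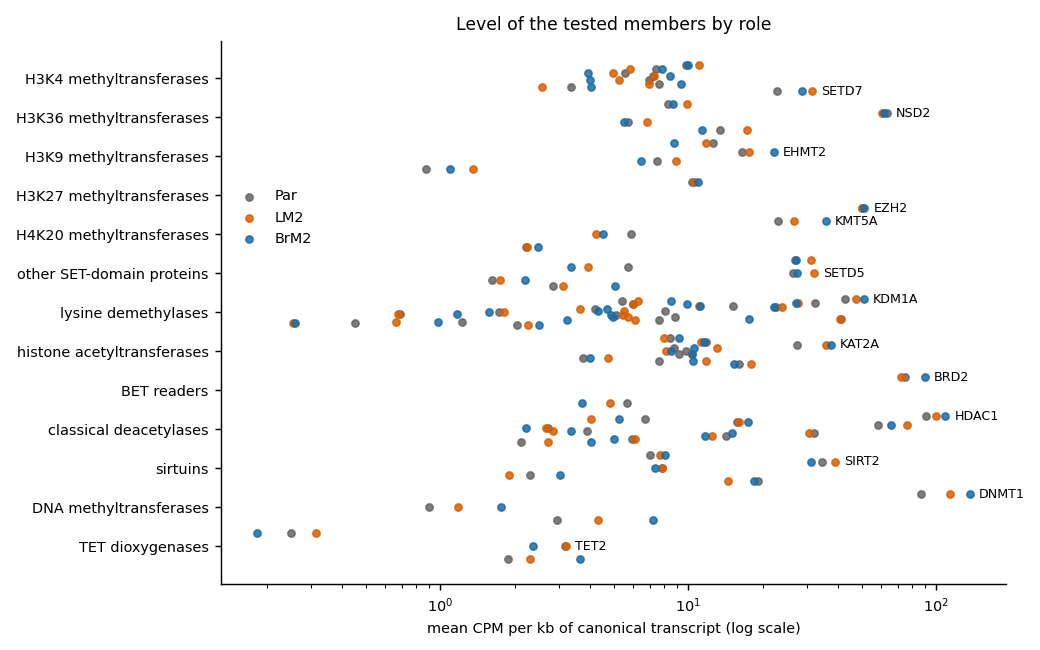
Mean level of tested members in CPM per kb of canonical transcript (horizontal, log scale), by role (vertical), with 1 point per line (mean of 3 replicates) and the highest member of each role named. DNMT1 and HDAC1 reach about 100 CPM per kb, and all 3 TET genes stay below 5.

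Few members were called between the lines in a fit with no term for the replicate number. In LM2 compared with Par, edgeR called 1 of the 76 members at an adjusted p under 0.05 (1.32%), against 8.69% of all tested genes. None was higher, where 4.17% of all genes were, and 1 was lower, where 4.52% were. In BrM2 compared with Par it called 9 members (11.8%, against 13.3% of all genes), 5 of them higher (6.25% of all genes) and 4 lower (7.02%). In BrM2 compared with LM2 it called 4 members (5.26%, against 8.1%), 2 of them higher (4.11% of all genes) and 2 lower (3.99%). At an unadjusted p under 0.05, 4, 18 and 14 members passed in the 3 comparisons, where 20.2%, 25% and 20.9% of all genes did. Both comparisons with Par used the same Par libraries. The share of members called was thus below that of all genes in LM2 and near it in BrM2, which makes neither count a result about these families as a whole.

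The replicate numbers were taken as pairing the libraries, although only number 1 stood apart from the others. Counts rose when the replicate number entered the fit as a block. With the block, 16 members passed in LM2 against Par (34.5% of all genes did), 26 in BrM2 against Par (42.7%) and 21 in BrM2 against LM2 (37.5%). The 16 members were 7 higher (15.5% of all genes) and 9 lower (19.1%). The 26 were 13 higher (19.5%) and 13 lower (23.2%), and the 21 were 15 higher (17.8%) and 6 lower (19.7%). At least 1 comparison was passed by 10 members (13.2%) without the block and by 39 (51.3%) with it, against 18.3% and 62.3% of all tested genes. Libraries of the lines did not overlap for 11 members in LM2 against Par (25.2% of all genes), 23 in BrM2 against Par (31.3%) and 15 in BrM2 against LM2 (23.1%).

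Differences of members were also small in size. The median size of the log2 fold change was 0.21 in LM2 against Par, 0.29 in BrM2 against Par and 0.27 in BrM2 against LM2, compared with 0.32, 0.36 and 0.35 over all tested genes. A change of at least 1 on the log2 scale was reached by 0, 5 and 2 members, and by 12.1%, 14.8% and 12.2% of all genes. Those in BrM2 against Par included KDM5C, KDM6A, HDAC6 and DNMT3B.

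**Figure D2:**
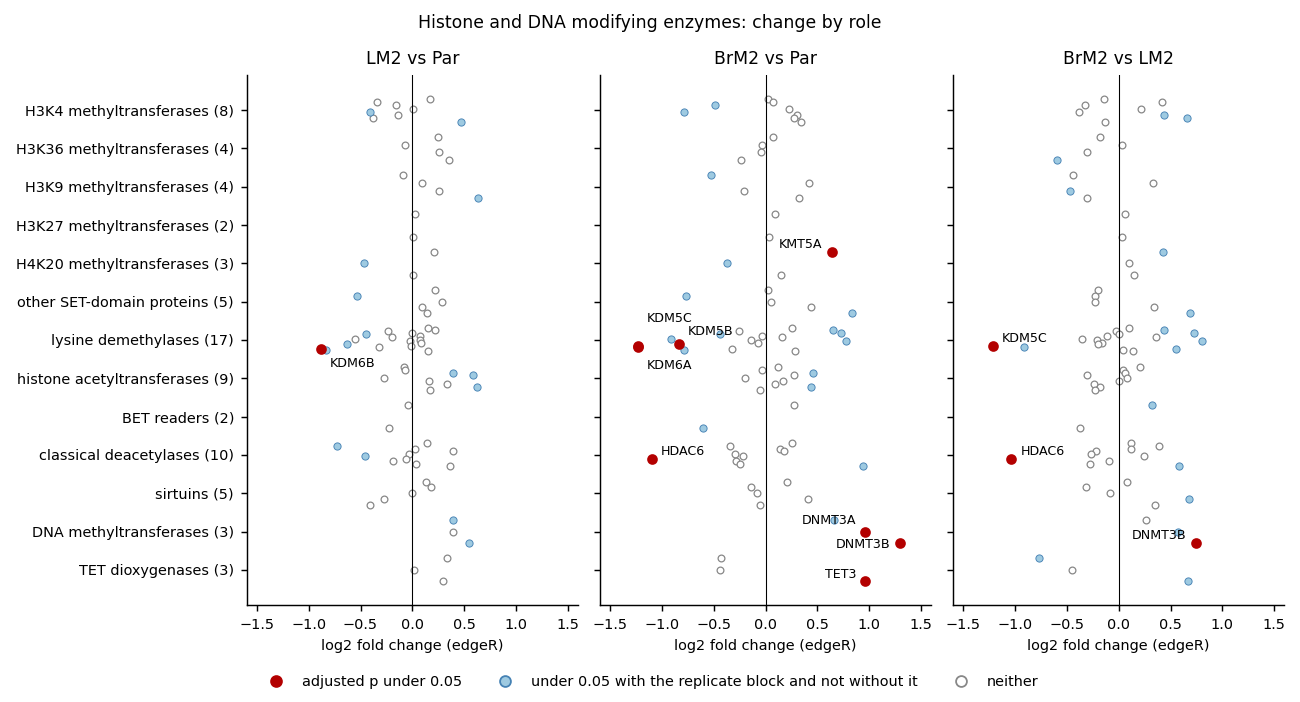
Log2 fold change (edgeR) of tested members by role, for LM2 vs Par, BrM2 vs Par and BrM2 vs LM2, with the number of members shown in brackets. Filled dark points are members with an adjusted p under 0.05, such as KDM6B at -0.88 in LM2 vs Par and DNMT3B at 1.30 in BrM2 vs Par, light blue points pass with the replicate block and not without it, and open points pass neither.

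Among the histone methyltransferases, KMT5A was the only member called without the block in any comparison. KMT5A places the first methyl group on H4K20 and acts in the cell cycle. It was at 62.4, 64.8 and 64.6 CPM in Par replicates 1 to 3, at 67.1, 77.1 and 77.6 CPM in LM2 and at 97.1, 104 and 97.4 CPM in BrM2. Libraries of the 3 lines did not overlap, in the order Par, LM2, BrM2. KMT5A rose by 0.64 on the log2 scale in BrM2 against Par (SE 0.15, edgeR adjusted p = 0.026), which is 1.56-fold. In LM2 against Par the difference was 0.21 (SE 0.15, edgeR adjusted p = 0.54). BrM2 against LM2 gave 0.43 (SE 0.15, adjusted p = 0.15 without the block and 0.0095 with it, with 0.0058 to 0.78 over 17 alternatives). The call against Par was lost without any 1 of Par replicates 1, 2 or 3, LM2 replicate 2 or BrM2 replicates 2 or 3 (adjusted p 0.05 to 0.096), and with no filter on low counts (0.24). Part of the KMT5A transcripts (14% of their stretches of 50 bases) is shared with other genes such as the pseudogene KMT5AP2, and reads of that part could be split between them.

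The remaining methyltransferases showed no call without the block. Of the 8 members grouped by name under H3K4, which include the MLL family and SETD1A and SETD1B, fold changes ran from -0.41 to 0.47 in LM2 and from -0.79 to 0.35 in BrM2 against Par on the log2 scale. With the block SETD7 was higher and KMT2E lower in LM2, KMT2C and KMT2E were lower in BrM2, and SETD1A and SETD1B were higher in BrM2 than in LM2. None of the 4 H3K36 enzymes passed against Par in either model, and SETD2 was lower in BrM2 than in LM2 with the block. In the H3K9 group with the block, SETDB2 was higher in LM2 and EHMT1 lower in BrM2 against Par, and SETDB1 was lower in BrM2 than in LM2.

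EZH2 and EZH1, the catalytic subunits of the PRC2 complex that methylates H3K27, differed little between the lines. EZH2 was at 116, 144 and 138 CPM in Par, at 100.1, 150 and 150 CPM in LM2 and at 99.5, 160 and 150 CPM in BrM2. Replicate 1 was the lowest in each line and the lines overlapped. Its log2 fold changes were 0.01 (SE 0.24, edgeR adjusted p = 0.99) in LM2 and 0.04 (SE 0.24, adjusted p = 0.96) in BrM2 against Par. EZH1 gave 0.03 and 0.09 (SE 0.19 for both). For KMT5B, another H4K20 enzyme, and for SETD4, values were lower in both sub-populations against Par with the block.

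SETD9, a little-studied SET-domain protein, was chosen after its values were seen. It was at 4.20, 4.50 and 3.18 CPM in Par, 4.22, 4.77 and 4.14 CPM in LM2 and 4.87, 7.90 and 8.39 CPM in BrM2. All BrM2 libraries were above all Par and LM2 libraries, replicate 1 by the least. The log2 fold change against Par was 0.84 (SE 0.27), with an edgeR adjusted p of 0.077 without and 0.011 with the block (0.0064 to 0.68 over 17 alternatives). Against LM2 it was 0.69 (SE 0.26, adjusted p = 0.17 without and 0.03 with the block, 0.02 to 0.88 over 17 alternatives).

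Lysine demethylases, 17 of the 76 tested members, held 4 of the 10 members called without the block in at least 1 comparison. Of all tested genes, 18.3% were called in this way. The 4 demethylases were all lower in a metastatic sub-population than in Par. Of the 17, 1 was called lower in LM2, where 4.52% of all tested genes were, and 3 in BrM2, where 7.02% were. With the block, 3 other demethylases were higher in BrM2 than in Par, and the shared direction is no result about the family. KDM5C and KDM5B remove methyl groups from H3K4, and KDM6A (UTX) and KDM6B (JMJD3) from H3K27. KDM6A and KDM5C lie on the X chromosome at chrX:44873188-45112779 and chrX:53176277-53225207 (GRCh38.p14), and the deacetylase gene HDAC6 lies between them at chrX:48801398-48824982. Because these 3 genes fell together in BrM2, the 250 bases before the annotated start of each are shown (RefSeq, GRCh38.p14), read along the gene's own strand. Capitals mark the GC box GGGCGG, or CCGCCC on the other strand, which binds Sp-family factors and is held by 42.7% of 34961 such windows. HDAC6 has 2 further windows at later starts that are not shown.
KDM6A, plus strand, chrX:44872938-44873187: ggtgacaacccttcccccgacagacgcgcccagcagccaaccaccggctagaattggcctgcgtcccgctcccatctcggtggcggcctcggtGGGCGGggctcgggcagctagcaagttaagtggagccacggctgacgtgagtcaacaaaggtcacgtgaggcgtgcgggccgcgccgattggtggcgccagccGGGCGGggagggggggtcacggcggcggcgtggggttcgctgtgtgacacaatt
HDAC6, plus strand, chrX:48801148-48801397: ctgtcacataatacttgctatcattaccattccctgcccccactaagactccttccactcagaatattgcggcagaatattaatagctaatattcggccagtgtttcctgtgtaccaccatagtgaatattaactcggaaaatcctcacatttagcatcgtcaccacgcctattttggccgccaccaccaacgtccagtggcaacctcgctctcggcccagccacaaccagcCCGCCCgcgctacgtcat
KDM5C, minus strand, chrX:53225208-53225457: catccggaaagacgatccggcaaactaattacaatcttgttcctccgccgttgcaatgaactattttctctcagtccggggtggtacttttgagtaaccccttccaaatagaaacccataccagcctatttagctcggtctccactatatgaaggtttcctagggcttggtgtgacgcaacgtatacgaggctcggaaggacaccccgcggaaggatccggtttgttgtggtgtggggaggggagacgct
That of KDM6A holds 2 GC boxes and 27 CpG dinucleotides, that of HDAC6 holds 1 and 13, and that of KDM5C holds 0 and 15, where the median of all windows is 11 CpG. The 2 windows of HDAC6 not shown hold 2 and 3 GC boxes and 24 and 27 CpG.

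KDM5C had one of the higher levels among the demethylases. It was at 267, 235 and 216 CPM in Par replicates 1 to 3, at 316, 198 and 196 CPM in LM2 and at 123, 90.6 and 92.7 CPM in BrM2. All BrM2 libraries were below all Par and LM2 libraries, whereas Par and LM2 overlapped. KDM5C fell by 1.23 on the log2 scale in BrM2 against Par (SE 0.24, edgeR adjusted p = 0.0097), or 2.34-fold, and by 1.21 against LM2 (SE 0.24, adjusted p = 0.015). In LM2 against Par the log2 fold change was -0.02 (SE 0.24, edgeR adjusted p = 0.99). Both calls were lost without BrM2 replicate 2 (adjusted p = 0.061 against Par and 0.079 against LM2) or BrM2 replicate 3 (0.054 and 0.081).

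KDM6A was at 41.3, 46.9 and 51.0 CPM in Par, at 32.1, 39.6 and 39.8 CPM in LM2 and at 13.3, 25.0 and 20.9 CPM in BrM2. The 3 lines did not overlap, with Par the highest and BrM2 the lowest. It fell by 1.23 on the log2 scale in BrM2 against Par (SE 0.25, edgeR adjusted p = 0.012), or 2.35-fold. In BrM2 against LM2 the log2 fold change was -0.91 (SE 0.25, adjusted p = 0.062 without the block and 0.00079 with it, with 0.00079 to 0.60 over 17 alternatives). LM2 against Par gave -0.32 (SE 0.25, edgeR adjusted p = 0.58). The call was lost without Par replicate 3 (adjusted p = 0.05) or BrM2 replicate 3 (0.051).

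KDM5B was lower in both sub-populations. Par libraries were at 80.0, 77.1 and 89.5 CPM, LM2 at 47.4, 48.0 and 63.8 CPM and BrM2 at 45.5, 43.3 and 49.5 CPM. Neither sub-population overlapped with Par, and they overlapped with each other. Against Par, KDM5B fell by 0.83 on the log2 scale in BrM2 (SE 0.19, edgeR adjusted p = 0.018), or 1.78-fold. In LM2 the log2 fold change was -0.63 (SE 0.18), with an adjusted p of 0.074 without the block and 0.0016 with it (0.0016 to 0.76 over 17 alternatives). The call in BrM2 was lost without any 1 of Par replicates 2 or 3 or BrM2 replicates 2 or 3 (adjusted p 0.056 to 0.079), and with no filter on low counts (0.086).

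KDM6B was the only member called in LM2 against Par. It was at 7.93, 8.71 and 8.02 CPM in Par, at 4.67, 4.04 and 4.67 CPM in LM2 and at 8.19, 5.47 and 6.04 CPM in BrM2. All LM2 libraries were below all others, and BrM2 overlapped with Par through its replicate 1. KDM6B fell by 0.88 on the log2 scale in LM2 (SE 0.22, edgeR adjusted p = 0.04), or 1.84-fold. BrM2 against Par gave -0.33 (SE 0.22, edgeR adjusted p = 0.43), and BrM2 against LM2 gave 0.55 (SE 0.22, adjusted p = 0.19 without and 0.041 with the block, 0.041 to 0.78 over 17 alternatives). The call in LM2 held in 1 of 9 fits that each left out 1 library. It was lost without any 1 of Par or LM2 replicates 1 to 3 or BrM2 replicates 2 or 3 (adjusted p 0.058 to 0.17), and with no filter (0.19), RLE normalization (0.057) or filterByExpr (0.054).

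Of the other 13 tested demethylases, 6 passed at least 1 comparison with the block, as did 62.3% of all tested genes. KDM3A and KDM7A, which act on H3K9, were then lower in both sub-populations against Par and KDM4B was lower in BrM2, while KDM1B, KDM2B and KDM4D were higher in BrM2 than in Par and in LM2. KDM1A (LSD1), the demethylase with the highest level per length, passed in neither model.

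**Figure D3:**
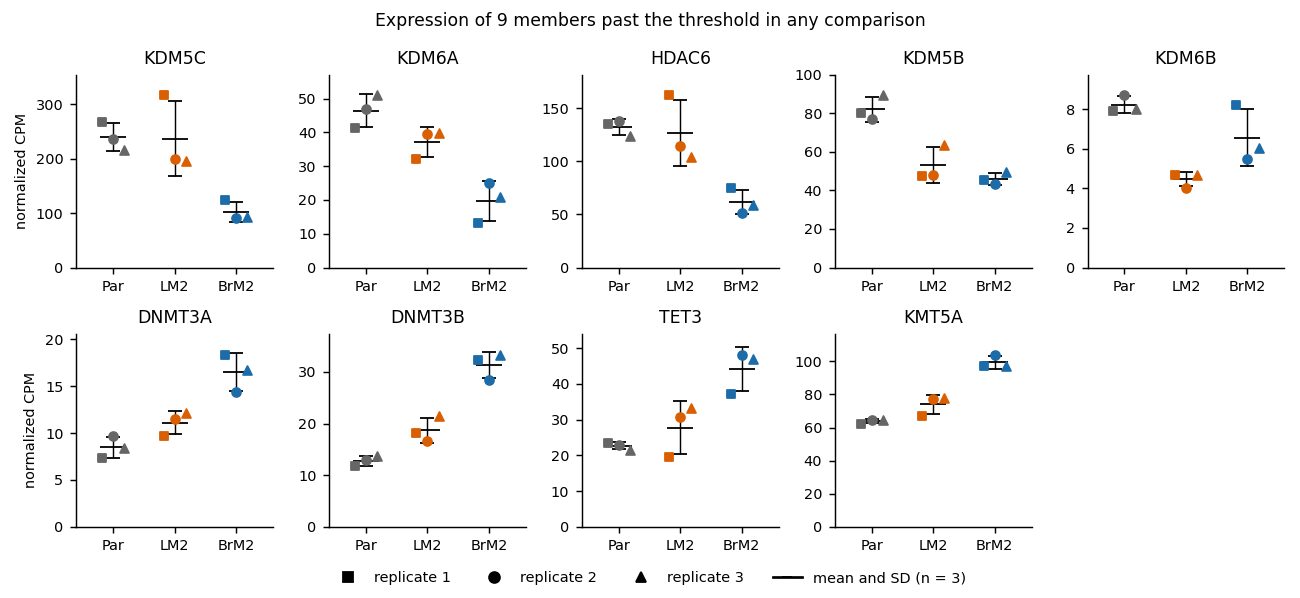
Normalized CPM (vertical, from 0) of 9 members called in any comparison, in Par, LM2 and BrM2, with a symbol for each replicate and the mean and SD over 3 replicates as a bar. BrM2 lies lowest for KDM5C, KDM6A and HDAC6 and highest for DNMT3A, DNMT3B, TET3 and KMT5A, and KDM6B is lowest in LM2.

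No histone acetyltransferase was called without the block in any comparison, and the 9 genes lay between -0.27 and 0.62 in LM2 and between -0.20 and 0.46 in BrM2 on the log2 scale against Par. With the block, KAT2A and KAT7 were higher in both sub-populations, and KAT2B was higher in LM2.

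BRD3, a BET reader of acetylated histones, was chosen after its values were seen. It was at 32.9, 35.6 and 27.2 CPM in Par, 28.9, 26.0 and 26.9 CPM in LM2 and 27.9, 13.7 and 21.4 CPM in BrM2, where replicate 1 overlapped with Par. The log2 fold change in BrM2 against Par was -0.60 (SE 0.26), with an edgeR adjusted p of 0.19 without and 0.025 with the block (0.021 to 0.88 over 17 alternatives). BRD3 overlaps a gene on the opposite strand, BRD3OS, and the strand that was counted is not stated, so that its counts could include reads of that gene. BRD2 was higher in BrM2 than in LM2 with the block.

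One classical deacetylase was called. HDAC6 deacetylates tubulin and other cytoplasmic proteins more than histones. It was at 135, 138 and 123 CPM in Par, at 162, 114 and 104 CPM in LM2 and at 74.4, 51.6 and 59.2 CPM in BrM2. The BrM2 libraries were below all others, and Par and LM2 overlapped. HDAC6 fell by 1.10 on the log2 scale in BrM2 against Par (SE 0.22, edgeR adjusted p = 0.012), or 2.14-fold, and by 1.04 against LM2 (SE 0.22, adjusted p = 0.023). In LM2 against Par it was at -0.06 (SE 0.22, edgeR adjusted p = 0.94). Against Par the call was lost without Par replicate 2 (adjusted p = 0.053), BrM2 replicate 2 (0.071) or BrM2 replicate 3 (0.062). Against LM2 it was lost without Par replicate 2 (0.05), LM2 replicate 2 (0.057), BrM2 replicate 2 (0.1) or BrM2 replicate 3 (0.11).

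HDAC9, a class IIa deacetylase that interacts with MEF2 factors, was chosen after its values were seen. It was at 16.6, 21.5 and 24.5 CPM in Par, 19.1, 30.8 and 30.6 CPM in LM2 and 29.4, 51.2 and 39.4 CPM in BrM2. BrM2 did not overlap with Par and overlapped with LM2. The log2 fold change against Par was 0.94 (SE 0.29), with an edgeR adjusted p of 0.066 without and 0.00039 with the block (0.00039 to 0.59 over 17 alternatives). Against LM2 it was 0.58 (SE 0.28, adjusted p = 0.30 without and 0.0079 with the block, 0.0079 to 0.86 over 17 alternatives). HDAC5 and HDAC11 were lower in LM2 against Par with the block. No sirtuin passed against Par in either model, and SIRT5 was higher in BrM2 than in LM2 with the block.

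All 3 DNA methyltransferases had positive log2 fold changes in all 3 comparisons, which share libraries, so that the signs are not independent. DNMT3B was at 11.8, 12.9 and 13.7 CPM in Par, at 18.1, 16.7 and 21.4 CPM in LM2 and at 32.3, 28.5 and 33.4 CPM in BrM2. The 3 lines did not overlap, in the order Par, LM2, BrM2. DNMT3B rose by 1.30 on the log2 scale in BrM2 against Par (SE 0.19, edgeR adjusted p = 0.0022), or 2.45-fold, and by 0.74 against LM2 (SE 0.19, adjusted p = 0.041). LM2 against Par gave 0.55 (SE 0.19), with an adjusted p of 0.12 without the block and 0.009 with it (0.009 to 0.78 over 17 alternatives). The call against Par held in all 9 fits that each left out 1 library, and that against LM2 in 0 of 9 (adjusted p 0.063 to 0.18) and not with no filter (0.25).

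DNMT3A was at 7.36, 9.68 and 8.37 CPM in Par, at 9.74, 11.5 and 12.1 CPM in LM2 and at 18.4, 14.4 and 16.8 CPM in BrM2. These libraries too were in the order Par, LM2, BrM2 with no overlap. DNMT3A rose by 0.96 on the log2 scale in BrM2 against Par (SE 0.21, edgeR adjusted p = 0.015), or 1.95-fold. BrM2 against LM2 gave 0.57 (SE 0.21, adjusted p = 0.15 without and 0.022 with the block, 0.022 to 0.76 over 17 alternatives), and LM2 against Par gave 0.39 (SE 0.21, adjusted p = 0.35). The call was lost without Par replicate 1 (adjusted p = 0.062), Par replicate 3 (0.064) or BrM2 replicate 3 (0.064), and with no filter on low counts (0.07).

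DNMT1, chosen after its values were seen, was at 489, 500.2 and 380.0 CPM in Par, at 725, 546 and 532 CPM in LM2 and at 832, 650.2 and 689 CPM in BrM2. Both sub-populations were above Par in all libraries and overlapped with each other. In BrM2 against Par the log2 fold change was 0.66 (SE 0.20), with an edgeR adjusted p of 0.064 without and 0.0015 with the block (0.0015 to 0.54 over 17 alternatives). LM2 against Par gave 0.40 (SE 0.20, adjusted p = 0.33 without and 0.032 with the block, 0.032 to 0.92 over 17 alternatives). DNMT1 overlaps S1PR2 on the same strand, a gene with a mean of 58.1 counts.

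TET3, the dioxygenase that acts on the paternal genome after fertilization, was higher in BrM2. It was at 23.6, 22.8 and 21.6 CPM in Par, at 19.4, 30.6 and 33.2 CPM in LM2 and at 37.2, 48.2 and 47.1 CPM in BrM2. BrM2 was above all other libraries, and LM2 lay on both sides of Par. TET3 rose by 0.96 on the log2 scale in BrM2 against Par (SE 0.24, edgeR adjusted p = 0.027), or 1.95-fold. BrM2 against LM2 gave 0.67 (SE 0.23, adjusted p = 0.14 without and 0.0079 with the block, 0.0077 to 0.72 over 17 alternatives), and LM2 against Par gave 0.29 (SE 0.23, adjusted p = 0.59). The call was lost without any 1 of Par replicates 1, 2 or 3 or BrM2 replicates 2 or 3 (adjusted p 0.074 to 0.11), and with no filter on low counts (0.056). TET1 and TET2 were at -0.43 on the log2 scale in BrM2 against Par with no call in either model, and TET1 was lower in BrM2 than in LM2 with the block.

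The positions of the called members were set beside the values of their neighbours, the other tested genes within 5 Mb. For the 3 X-linked members the neighbours were lower in BrM2 as well. Of 57 genes around KDM5C, 51 were lower in BrM2 than in Par with a median log2 fold change of -0.79, and around KDM6A 53 of 58 were lower (median -0.89) and around HDAC6 59 of 64 (median -0.89). These regions overlap, and without members they hold 88 different genes, of which 78 (88.6%) were lower, 28 called lower and 3 called higher, at a median of -0.83 (0.561-fold). In LM2 against Par the median of the same 88 genes was -0.05. The other 334 tested genes of the X chromosome had a median of -0.21 in BrM2 against Par, and the autosomal genes one of -0.01. HDAC8, the fourth tested X-linked member, lies outside these regions. It was at -0.24 (SE 0.36, edgeR adjusted p = 0.77), with a neighbour median of -0.36, and shares 67.1% of its stretches of 50 bases with another gene model. These regions were chosen after the values were seen, and the part of the region in the fall of the 3 members was not tested.

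**Figure D4:**
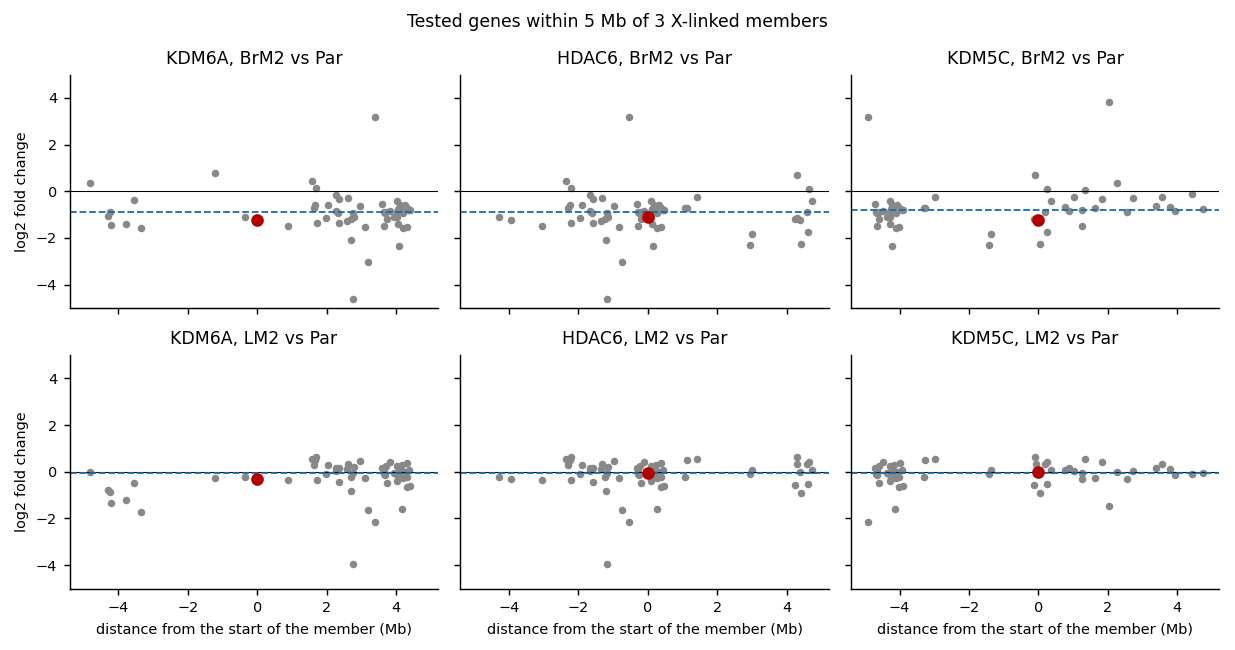
Log2 fold change (vertical) of tested genes by distance in Mb from the start of KDM6A, HDAC6 or KDM5C (horizontal), for BrM2 vs Par (top) and LM2 vs Par (bottom). Red points are the members, grey points their neighbours and dashed lines the neighbour medians, which are -0.89, -0.89 and -0.79 in BrM2 and near 0 in LM2.

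Neighbours of members on other chromosomes were described in the same way. Around BRD3 and EHMT1, near the end of the long arm of chromosome 9, 105 of 112 (93.8%) and 75 of 79 (94.9%) genes were lower in BrM2 than in Par, with medians of -0.66 and -0.65 on the log2 scale, close to the members' own -0.60 and -0.53. EHMT1 was at 64.2, 72.9 and 55.2 CPM in Par and at 51.2, 33.3 and 49.0 CPM in BrM2, with an edgeR adjusted p of 0.17 without and 0.025 with the block (0.025 to 0.88 over 17 alternatives). EHMT1 too was chosen after its values were seen. On chromosome 2 the neighbour medians were 0.40 for DNMT3A and 0.46 for TET3, where the members were at 0.96. The median around DNMT1 on chromosome 19 was 0.24, that around KMT5A on chromosome 12 was 0.30 and that around KDM5B on chromosome 1 was -0.28. DNMT3B, on chromosome 20, exceeded its neighbours by the most, 1.37 above a median of -0.07. The share of neighbours lower in BrM2 than in Par was 20% for DNMT3A, 12.3% for TET3 and 22.4% for KMT5A. It was 34.9% for DNMT1, 56% for DNMT3B and 71.4% for KDM5B. KDM6B on chromosome 17 fell in LM2 where the median of its 103 neighbours was 0.07. Most other members that passed only with the block are not set beside their neighbours here. Some moved like them against Par, such as SETDB2 in LM2 (0.63, neighbour median 0.56) and KDM7A in BrM2 (-0.79, median -0.70). Others did not, such as HDAC9 in BrM2 (0.94, median -0.21). These examples were chosen after their values were seen, and the part of the regions was not tested.

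Replicate 1 stood apart from replicates 2 and 3 in all lines, in the members as in other genes. The mean difference over the lines between replicate 1 and the other two ran from -1.83 for KDM7A to 0.99 for SIRT2 on the log2 scale, with 39 members lower and 37 higher in replicate 1. Replicate 1 was on the same side in all 3 lines for 62 of 76 members. The difference followed the GC content of the canonical transcript, with a Spearman correlation of 0.85 across the 76 members and 0.81 across all genes, which share the same libraries and are not independent replicates. Member transcripts had 37.8% to 66.0% GC, with a median of 50.4% against 48.0% for all genes. KDM6A lies among the AT-rich members and KDM5C and HDAC6 among the GC-rich ones, at 43.1%, 57.9% and 57.6%. Within replicates 2 and 3 alone, log2 fold changes in BrM2 against Par were -1.28 for KDM5C, -1.08 for KDM6A, -1.22 for HDAC6 and 1.23 for DNMT3B.

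**Figure D5:**
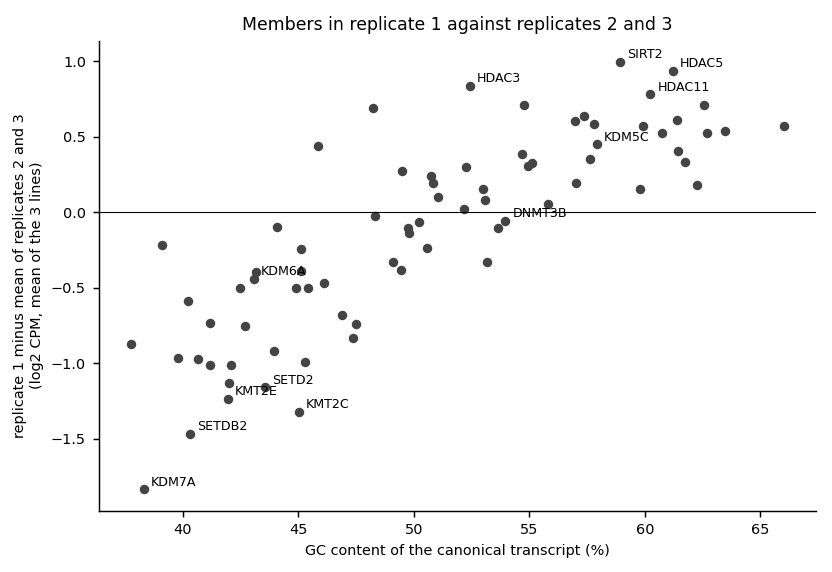
Difference between replicate 1 and the mean of replicates 2 and 3 in log2 CPM, averaged over Par, LM2 and BrM2 (vertical), against the GC content of the canonical transcript in % (horizontal), with 1 point for each member shown. AT-rich members such as KDM7A (-1.83) lie below 0 and GC-rich ones such as SIRT2 (0.99) above it.

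Partners of the enzymes and related families outside the rule, 128 tested genes in 8 lists, gave few calls without the block as well. Of them, 2 were higher and 2 lower in LM2 against Par (3.12%), 2 higher and 5 lower in BrM2 against Par (5.47%) and 2 higher and 3 lower in BrM2 against LM2 (3.91%). These shares lay below those of all tested genes. With the block, 17 of the 128 were higher and 11 lower in LM2 against Par, where 15.5% and 19.1% of all tested genes were. The counts were 22 and 19 in BrM2 against Par (19.5% and 23.2% of all genes) and 18 and 25 in BrM2 against LM2 (17.8% and 19.7%). RBBP7, a histone-binding subunit of PRC2 and deacetylase complexes, fell in both sub-populations. It was at 331, 394 and 360.0 CPM in Par, at 164, 216 and 202 CPM in LM2 and at 171, 208 and 217 CPM in BrM2, with no overlap with Par. Log2 fold changes were -0.90 (SE 0.18, edgeR adjusted p = 0.015) in LM2 and -0.86 (SE 0.18, adjusted p = 0.013) in BrM2.

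The other calls in LM2 against Par were HR, a JmjC protein (log2 fold change 2.33, SE 0.41, edgeR adjusted p = 0.0079), SETMAR (0.87, SE 0.20, adjusted p = 0.03) and TRRAP (-0.58, SE 0.15, adjusted p = 0.044), a scaffold of acetyltransferase complexes. PRDM9, the H3K4 methyltransferase of meiotic recombination hot spots, had 0 counts in all Par and LM2 libraries and was at 1.48, 3.22 and 1.96 CPM in BrM2. A count of 0 allows up to 3 counts per library, or 0.157 CPM in the Par library with the smallest normalized size, so that its mean was at least 14.1-fold higher in BrM2 than in Par and at least 14.9-fold higher than in LM2. Lower in BrM2 than in Par were also TBL1X, a subunit of the NCoR co-repressor complex (-0.77, SE 0.18, edgeR adjusted p = 0.022), TRRAP (-0.59), and the JmjC demethylases PHF2 (-0.74) and PHF8 (-0.69), and the remodeller CHD3 was higher (0.55). Against LM2, HR (-2.98, SE 0.43, edgeR adjusted p = 0.0033), JADE3 (-0.89, SE 0.22, adjusted p = 0.04) and PHF8 (-0.76) fell in BrM2, and MBD1, a reader of methylated DNA, rose (0.75). PHF8 lies 0.76 Mb from KDM5C and JADE3 2.04 Mb from KDM6A, among the 88 X-linked neighbours described above. The part of that region in their fall was not tested. TRRAP, PHF2, PHF8, CHD3 and MBD1 were chosen after their values were seen. Neither the 12 tested H3K4 methyltransferase partners nor the 20 chromodomain and bromodomain readers gave a call in any comparison without the block. With it, 3 of the former were higher in LM2 against Par, 3 higher and 1 lower in BrM2 against Par and 2 higher and 3 lower in BrM2 against LM2. Of the latter, 1 was higher and 2 lower, 1 higher and 4 lower, and 0 higher and 3 lower in the same comparisons. Of all tested genes, 34.5%, 42.7% and 37.5% passed with the block in these comparisons.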

How the data were processed

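RNA-seq counts of 9 libraries were used, 3 each of Par, LM2 and BrM2. The authors made stranded mRNA libraries, aligned paired-end reads to hg38 with STAR 2.7.0 and deposited unnormalized counts per gene. The strand counted is not given in the sources used here. The authors also deposited a DESeq2 table of fold changes and adjusted p-values, which was not used.

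Of 58887 lines, 3 repeated an identifier and were kept once. A filter written after HTSFilter, on the largest normalized count (over 47.15), kept 13055 genes. These hold 99.6% to 99.8% of each library's counts. Lines were compared in edgeR 4.0.16 (TMM, 2-sided quasi-likelihood test, all 9 libraries, no block), with Benjamini-Hochberg adjustment over all tested genes and a threshold of 0.05. The test was run on simulated counts drawn with the spread of the fit with the block and without a replicate effect. This does not check the calls made without the block on the real counts. An exact permutation test of 3 against 3 libraries cannot go below 0.1. CPM use TMM library sizes.

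Whether replicate numbers pair libraries was checked as the correlation of deviations from line means, which was 0.23 to 0.90 in all 9 same-numbered pairs. Libraries with different numbers gave -0.88 to 0.80. Replicate 1 stood apart, with 0.83 to 0.90 between lines. Among replicates 2 and 3, same-numbered pairs gave 0.23 to 0.81 and different-numbered pairs 0.39 to 0.80. Pairing by number was therefore not shown for replicates 2 and 3. The numbers were taken as pairing the libraries, and members' calls with that number as a blocking term are given where they differ, those of partners as counts. The common dispersion was then 0.0207, against 0.11 otherwise.

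Members and gene lists were chosen with earlier results of these data known. Members called without the block in any comparison are given in full, except 1 whose result is not reported here, with the highest member of each role and those below the filter. Partner lists are given as counts, with the 3 largest changes called per comparison. Positions and promoter windows came from RefSeq (GRCh38.p14). Length, GC content and shared stretches came from GENCODE transcripts. Alternatives were DESeq2 1.42.0, RLE normalization, no filter, filterByExpr, the block, and leaving out libraries. Scripts ran in R 4.3.3 (with limma 3.58.1) and in Python 3.11.15, with figures drawn in matplotlib.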

Additional observations from a re-analysis of the deposited data

How the results depend on the processing

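With the replicate block, 16, 26 and 21 members passed in LM2 vs Par, BrM2 vs Par and BrM2 vs LM2, against 1, 9 and 4 without it. Of all tested genes, 4510, 5577 and 4896 passed with the block, against 1134, 1733 and 1057. Of the members described with their values, the block ended no call and changed none beyond those given beside them. DESeq2 called 3, 15 and 10 members and 1893, 2520 and 1824 of all genes. RLE normalization gave 0, 9 and 4 members (1098, 1683 and 1035 of all genes), filterByExpr gave 0, 9 and 3 (1316, 2097 and 1292) and no filter gave 0, 5 and 2 (1498, 2165 and 1446). For the counts the cause was not tested. Over the fits that left out 1 library, or 1 replicate number in all lines, members numbered 0 to 13, 0 to 27 and 0 to 14, and all genes 70 to 4327, 159 to 5274 and 53 to 4257. The highest of these counts came without replicate 1 of all lines, and without replicate 2 or replicate 3 of all lines 0 members passed in any comparison. Of single libraries in BrM2 vs Par, leaving out Par replicate 2 or 3 or BrM2 replicate 2 gave 4 members (988, 1113 and 1043 of all genes), BrM2 replicate 3 gave 2 (941) and BrM2 replicate 1 gave 13 (1649). In LM2 vs Par, 4 small log2 fold changes with no call changed sign. KDM5C gave 0.022 with RLE normalization and with DESeq2 and 0.0025 with filterByExpr, and lay between -0.28 and 0.10 in the leave-out fits. These fits gave -0.28 to 0.064 for HDAC6, -0.17 to 0.30 for HDAC8 and -0.18 to 0.063 for EHMT1.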
